A study of Mus musculus with 6 samples.

Results

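The 10 genes described here are the Notch receptors Notch1, Notch2 and Notch3, the ligands Jag1, Jag2 and Dll1, and the target genes Hes1, Hey1, Hey2 and Heyl. They were taken by name, with earlier results of these data known, and all 10 were found by symbol among the 46603 genes counted. The cells were mouse embryonic fibroblasts (MEFs) of strain BALB/c, labelled as from embryos of 10.5 days, either homozygous knockouts for beta-actin (KO) or wild type (WT), with 3 libraries of total RNA each. Both genotypes had spent 6 days in the same adipogenic medium, with insulin, dexamethasone, 3-isobutyl-1-methylxanthine (IBMX) and ascorbic acid, and no library from before induction was analysed here. The MEFs of both genotypes came from another laboratory, and nothing says whether the 3 libraries of a genotype came from separate cultures or embryos, so p-values measure only the spread between these samples.

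Notch receptors sit in the membrane and are activated by ligands of the Jagged and Delta-like families on a neighbouring cell. Ligand binding exposes the receptor to the protease ADAM10 and then to gamma-secretase, which frees an intracellular domain that enters the nucleus and joins the DNA-binding protein RBPJ and a Mastermind coactivator. Among the best known genes switched on in this way are those of the HES and HEY families, basic helix-loop-helix (bHLH) repressors. In preadipocyte cultures Notch signalling and Hes1 have been studied for their effect on adipocyte differentiation, and Notch3 is best known from the mural cells of blood vessels.

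In KO cells 2 of the 3 ligand genes fell, Jag2 by 6.24-fold and Dll1 by 3.78-fold, while Jag1 did not pass the test. Of the receptors Notch2 rose slightly, by 1.27-fold, a call kept in only 5 of 14 alternative runs, and Notch1 and Notch3 were not called. None of the target genes Hes1, Hey1 and Hey2 was called, and Heyl had too few counts to test. Over the 10 genes this makes 1 higher, 2 lower, 6 not called and 1 not tested in edgeR's quasi-likelihood test at an adjusted p below 0.05. Of all 15009 tested genes 28.3% were called, 13.8% higher and 14.5% lower in KO, so the share called among the 9 tested genes is near the background. The libraries of KO and WT did not overlap for 3 of the 9, Notch2 above and Jag2 and Dll1 below, and they did not overlap for 49.6% of all tested genes. Their median log2 fold change was 0.30, against 0.01 over all tested genes. Without KO replicate 1, a library that stands apart, 2 were called higher (Notch2 and Notch3) and 3 lower (Notch1, Jag2 and Dll1), in a fit that called 42.3% of all its 15453 tested genes.

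Library totals ran from 26955708 to 38619711 counts. Across all tested genes KO replicate 1 differed from KO replicates 2 and 3 by a median of 0.44 and 0.42 on the log2 scale, while KO replicates 2 and 3 differed from each other by 0.12 and the WT libraries among themselves by 0.15 to 0.21. Results are therefore also given without KO replicate 1. Actb, which checks the labels, was at 1875 ± 47.9 counts per 1000000 (CPM, in libraries scaled by TMM) in WT and 39.9 ± 25.9 CPM in KO (SD, n = 3). In KO replicates 1, 2 and 3 Actb stood at 10.4, 58.9 and 50.3 CPM, so KO replicate 1 had the least of it. Whether this goes with the distance of KO replicate 1 from the other KO libraries was not tested. All 10 fibroblast markers were detected, and their summed level was 2974 to 3738 CPM in WT and 6852 to 9386 in KO. Most of this sum came from Fn1, Col1a1 and Vim, with Fn1 at a mean of 2109 CPM in WT and 4949 in KO. Of the 10 markers 7 were called higher and 3, Pdgfrb, Dcn and S100a4, were not called. Dcn had a mean of 24.4 CPM in WT and 17.6 in KO. Among the markers called higher, Thy1 was counted 0, 1 and 0 times in the WT libraries and 20, 13 and 17 times in the KO libraries, and Col1a2 had 28 counts over the 3 WT libraries and 590 over the 3 KO libraries. Expression values are of bulk RNA, in which fewer cells that express a gene and less of its RNA per cell cannot be told apart.

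Promoter sequences were at hand for 7 of the 10 genes, in 8 windows from 250 bases before to 50 after an annotated start (RefSeq, GRCm38.p6). Hes1, Hey1 and Heyl had no entry. The core motif of RBPJ, TGGGAA, was searched on both strands, and Hey2 was the only gene with a match in its window. It had 2, at positions -207 on the opposite strand and -3 on the gene's strand (the first base of the match, counted from the start), and both were also matches to the longer GTGGGAA, which holds the shorter motif within it. Of all 32851 windows given for mouse genes 25.6% held TGGGAA and 6.38% held GTGGGAA. A match is only a description of these letters, and a window without one does not bear on RBPJ binding elsewhere. The stretch upstream of Hey2 is printed because it holds the first match, and the short site because it holds the second. The stretch upstream of Notch2 is printed because Notch2 is the only called gene whose window has no annotated exon at its far end, and it holds no match. Capitals mark the motif.
Hey2, chr10:30842802-30843033, minus strand: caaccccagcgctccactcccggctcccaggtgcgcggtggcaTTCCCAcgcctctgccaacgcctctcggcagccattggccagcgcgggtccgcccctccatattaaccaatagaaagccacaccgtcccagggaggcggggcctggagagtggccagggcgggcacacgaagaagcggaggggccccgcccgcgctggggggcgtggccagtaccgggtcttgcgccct
Hey2, site at the start, chr10:30842769-30842798, minus strand: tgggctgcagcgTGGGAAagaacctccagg
Notch2, chr3:98013288-98013526, plus strand: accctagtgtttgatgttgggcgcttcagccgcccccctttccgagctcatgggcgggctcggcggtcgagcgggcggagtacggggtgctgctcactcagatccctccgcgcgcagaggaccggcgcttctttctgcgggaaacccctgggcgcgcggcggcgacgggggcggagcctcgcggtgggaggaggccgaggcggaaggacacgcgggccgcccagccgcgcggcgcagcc

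**Figure D1:**
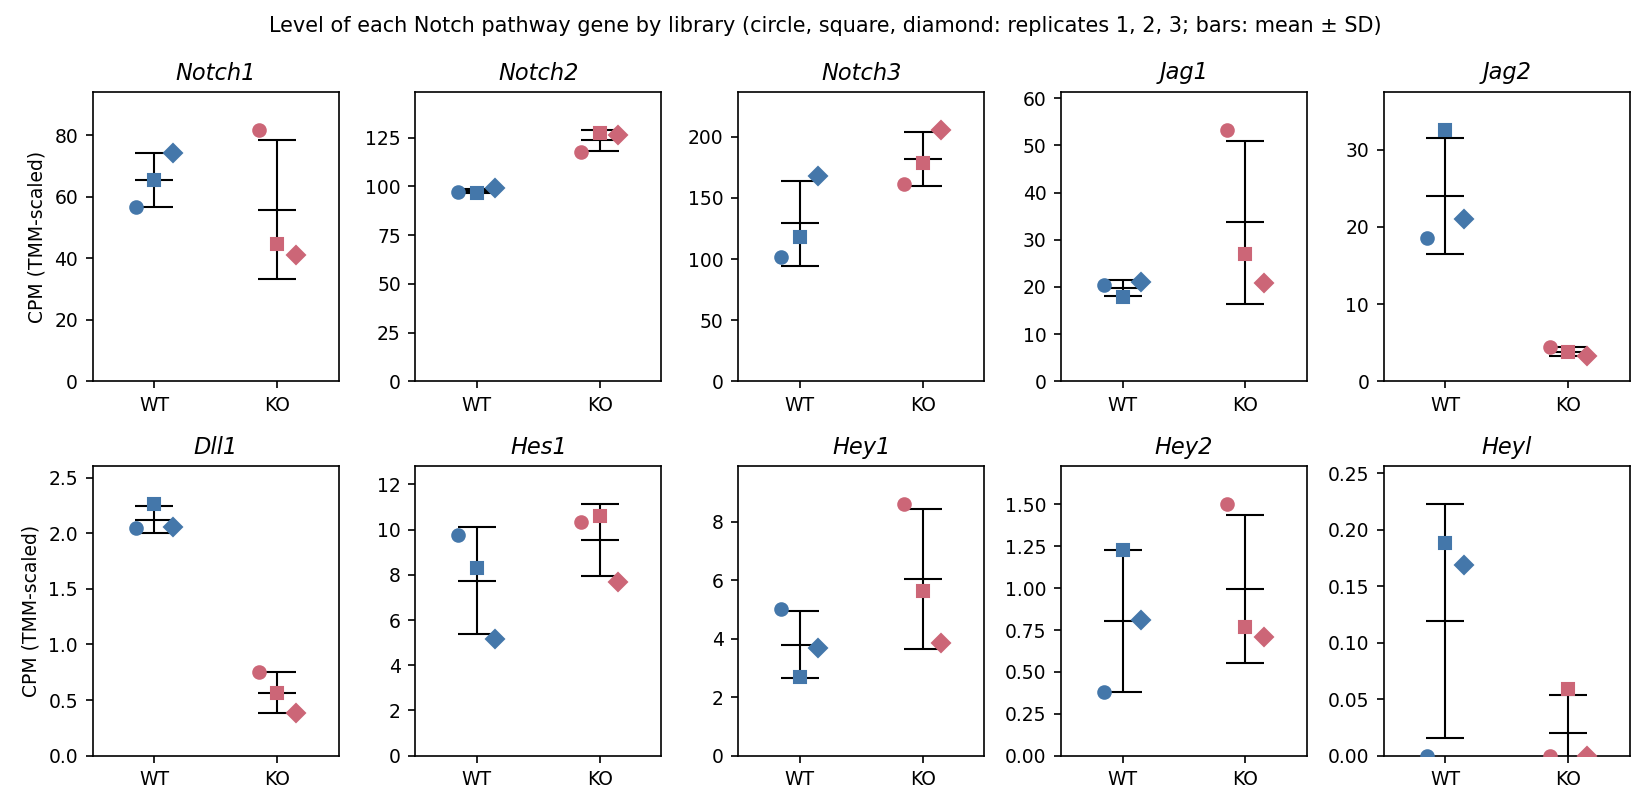
Level of each of the 10 genes in CPM (linear axes from 0, one scale per gene) in the 3 WT and 3 KO libraries, with replicates 1, 2 and 3 as circles, squares and diamonds and bars for the mean ± SD. The KO libraries lie below all WT libraries for Jag2 and Dll1 and above them for Notch2, and the groups overlap for the other genes.

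Of the 3 receptors, Notch2 had the smallest spread between libraries of a genotype. Notch2 (ENSMUSG00000027878, GRCm38 chromosome 3, 98013527 to 98150361, plus strand) encodes a receptor expressed in many mesenchymal cells. It stood at 97.0, 96.9 and 99.1 CPM in WT replicates 1, 2 and 3 and at 118, 127 and 126 CPM in KO replicates 1, 2 and 3. Every KO library was above every WT library. The difference on the log2 scale was 0.34 (SE 0.04, adjusted p = 0.0336). This call was lost with upper-quartile scaling (adjusted p = 0.0756), with library totals (log2 fold change 0.14, adjusted p = 0.355), with no filter on low counts (0.115) and without any 1 library other than KO replicate 1 (adjusted p from 0.0836 to 0.147). Without KO replicate 1 it was 0.38 (adjusted p = 0.00492). Gm42820, a gene on the same strand that shares 541 exon bases with Notch2, had 2 to 15 counts in a library.

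Notch3 (ENSMUSG00000038146, chromosome 17, 32120820 to 32166852, minus strand) stood at 101, 118 and 168 CPM in WT and at 162, 179 and 206 CPM in KO. WT replicate 3 lay above KO replicate 1, so the groups overlapped, and the log2 fold change of 0.49 (SE 0.24, adjusted p = 0.103) did not pass the test. It passed without WT replicate 3 (0.73, adjusted p = 0.0283) and without KO replicate 1 (0.57, adjusted p = 0.0465). An annotated gene on the opposite strand, Gm17276, shares 488 exon bases with Notch3 and had 22 to 140 counts in a library, against 3225 to 7561 for Notch3. Of 8 mural cell markers 5 could be tested, with 1 higher and 2 lower in KO, and their summed level was 73.2 to 82.0 CPM in WT and 54.1 to 60.0 CPM in KO. The difference lay in Cspg4, at 30.1, 31.0 and 42.3 CPM in WT and 0.188, 0.385 and 0.490 CPM in KO. The other 7 markers summed to 39.6 to 49.9 CPM in WT and 53.9 to 59.5 CPM in KO, the opposite order, most of it from Mcam. Their part in the level of Notch3 was not tested.

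Notch1 (ENSMUSG00000026923, chromosome 2, 26457903 to 26516663, minus strand) was the most uneven receptor among KO libraries. It stood at 56.9, 65.4 and 74.4 CPM in WT and at 81.8, 44.8 and 41.0 CPM in KO. KO replicate 1 lay above every WT library and the other two KO libraries lay below every one. With all libraries the log2 fold change of Notch1 was -0.23 (SE 0.33, adjusted p = 0.545). Without KO replicate 1 it was -0.61 and passed the test (adjusted p = 0.00557). On the opposite strand 0610009E02Rik shares 1068 exon bases with Notch1 and had 3 to 24 counts in a library, and Gm13568 shares 414 and had at most 1.

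To compare levels between genes, CPM were divided by exon length. This length merges all annotated exons of a gene and can exceed that of the transcripts present, so ranks and shares between genes depend on the annotation. Per kilobase, Notch3 was above Notch2 and Notch2 above Notch1 in each of the 6 libraries, at 16.0 ± 4.30, 9.06 ± 0.115 and 4.60 ± 0.616 CPM per kb in WT and 22.5 ± 2.75, 11.5 ± 0.497 and 3.93 ± 1.59 in KO (SD, n = 3). Together with Notch4, a receptor best known from endothelium that had 15 to 97 counts in a library, the summed receptor level was 25.6, 28.3 and 35.3 CPM per kb in WT and 36.7, 37.3 and 40.3 in KO. Every KO library was above every WT library, with p = 0.1 in an exact permutation test over libraries, two-sided, the smallest p that 3 against 3 allows. The gap was narrow, with WT replicate 3 at 35.3 and KO replicate 1 at 36.7 CPM per kb. The sum was taken with TMM scaling only, whose factors were 1.10 and 0.881 for these 2 libraries. Whether the groups separate under another scaling was not tested. Of all tested genes, 23.8% had every KO library above every WT library. Notch3 made up 48.9%, 51.5% and 58.8% of this sum in WT and 54.4%, 59.2% and 63.0% in KO, with overlap between the groups (exact permutation p = 0.2). The share of Notch1 was 15.5% ± 0.721 in WT, and in KO it was 15.7% in replicate 1 but 8.43% and 7.14% in replicates 2 and 3.

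Among the ligands, 2 of 3 were lower in every KO library than in any WT library, as were 25.8% of all tested genes. Jag2 (ENSMUSG00000002799, chromosome 12, 112907819 to 112929776, minus strand) encodes Jagged2. It stood at 18.5, 32.6 and 21.0 CPM in WT and at 4.43, 3.82 and 3.32 CPM in KO, resting on summed counts of 2247 (WT) and 369 (KO). The highest KO library was far below the lowest WT library. This is a log2 fold change of -2.64 (SE 0.27, adjusted p = 0.000499). It was called under all 14 alternatives, between -2.85 and -2.36 and with adjusted p of at most 0.00403, and was -2.75 without KO replicate 1.

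Dll1 (ENSMUSG00000014773, chromosome 17, 15367354 to 15376872, minus strand) encodes Delta-like 1, a ligand with a large part in somite formation and neurogenesis. It was scarcer, with WT counts of 65, 72 and 61 and KO counts of 20, 19 and 14. In CPM this is 2.04, 2.26 and 2.06 in WT and 0.751, 0.563 and 0.381 in KO, with no overlap. The log2 fold change of Dll1 was -1.92 (SE 0.26, adjusted p = 0.00466), and it was called under all 14 alternatives, between -2.16 and -1.69 and with adjusted p of at most 0.0263. A930024N18Rik, on the opposite strand, shares 867 exon bases with Dll1 and had 0 to 2 counts in a library.

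Jag1 (ENSMUSG00000027276, chromosome 2, 137081456 to 137116644, minus strand) encodes Jagged1, the ligand most studied in mesenchymal and vascular cells. It stood at 20.3, 17.8 and 21.0 CPM in WT and at 53.3, 27.0 and 20.8 CPM in KO. KO replicate 1 was the highest and KO replicate 3 lay within the WT range. The log2 fold change of Jag1 was 0.77 (SE 0.41, adjusted p = 0.119), or 0.28 without KO replicate 1 (adjusted p = 0.147). It passed without KO replicate 3 (1.03, adjusted p = 0.0403).

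Jag1 and Jag2 were at like levels per kilobase in WT, at 3.38 ± 0.291 and 3.45 ± 1.08 CPM per kb, with Jag1 above Jag2 in 2 libraries and below it in WT replicate 2. In KO they were at 5.78 ± 2.96 and 0.554 ± 0.0801. The ratio of Jag1 to Jag2 per exon length was 1.31, 0.653 and 1.20 in WT and 14.4, 8.43 and 7.49 in KO. As a share of the 5 ligands Jag1, Jag2, Dll1, Dll3 and Dll4, Jag1 made up 50.4%, 35.6% and 48.9% in WT and 90.8%, 86.4% and 85.3% in KO. Jag2 went from 44.6% ± 8.64 to 9.32% ± 2.66 and Dll1 from 6.62% ± 0.373 to 2.14% ± 0.363 (SD, n = 3). The groups did not overlap for any of the 3, each with the smallest exact permutation p of 0.1 (0.325 adjusted over 13 shares). The same held for Dll4, from 3.18% ± 0.377 to 0.692% ± 0.269. Shares of 1 sum are linked, so a lower share of Jag2 raises that of Jag1, which was not called as a gene. The summed ligand level did overlap, at 6.92, 8.58 and 7.37 CPM per kb in WT and 10.1, 5.36 and 4.18 in KO (exact permutation p = 0.5).

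**Figure D2:**
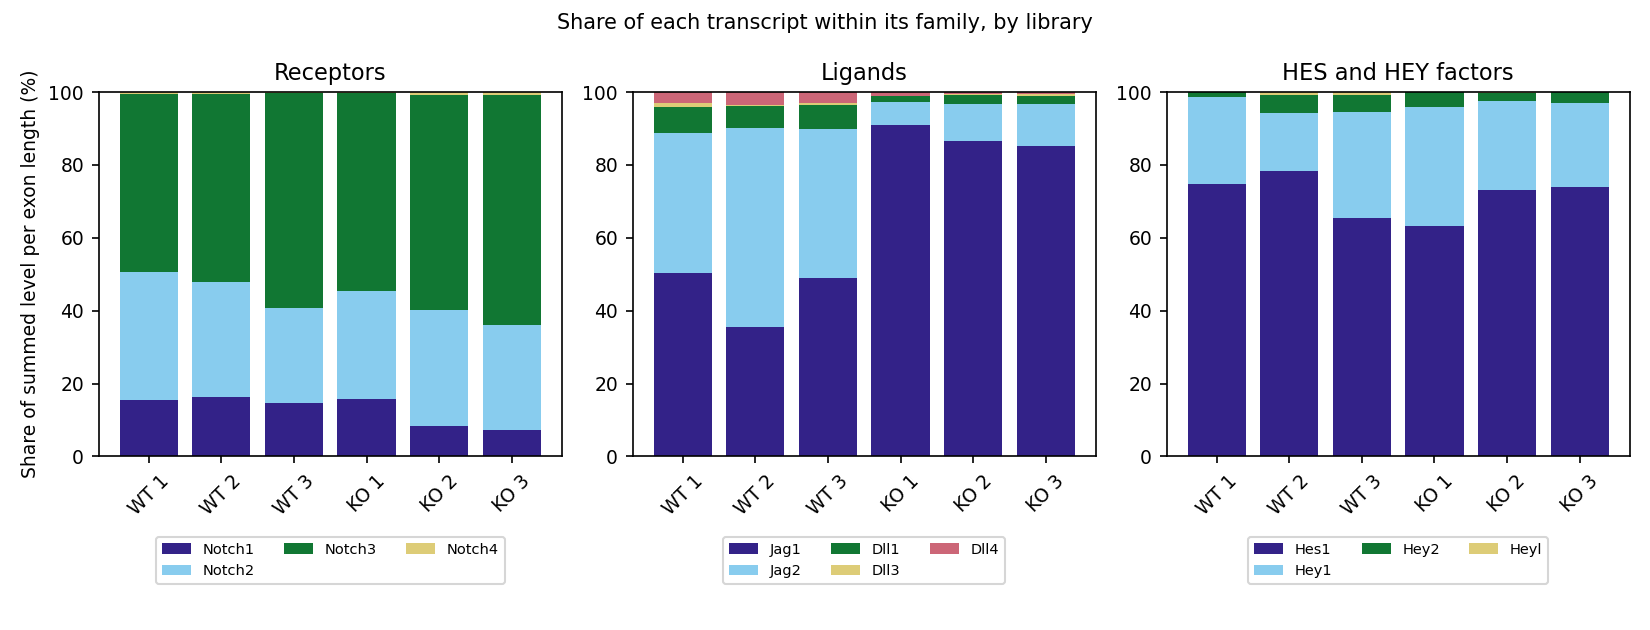
Share of each transcript in the summed level per exon length (%, y axis) of the receptors, the ligands and the HES and HEY factors in each of the 6 libraries (x axis). Jag1 takes 85.3% to 90.8% of the ligand sum in KO and 35.6% to 50.4% in WT, while Notch3 leads the receptors and Hes1 the HES and HEY factors in every library.

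Of the other receptors and ligands, 4 of 6 could be tested, of which 2 fell and 0 rose. Dll4, a Delta-like ligand best known from sprouting endothelium, fell by 2.35 on the log2 scale (SE 0.51, adjusted p = 0.0159), with WT counts of 25, 38 and 25 and KO counts of 10, 3 and 4. Gm14207, which shares 214 exon bases with Dll4 on the opposite strand, had 2 to 9 counts in a library. Dlk2, a Delta-like protein without the domain that binds Notch in the canonical ligands, fell by 1.73 (SE 0.23, adjusted p = 0.00256), from 8.39 ± 2.05 to 2.53 ± 0.331 CPM, and shares 51 exon bases with Abcc10 on the opposite strand. The relative of Dlk2, Dlk1, the preadipocyte factor Pref-1, gave 46, 2 and 3 reads in the WT libraries and 14, 271 and 48 in the KO libraries. It was not called (log2 fold change 2.60, adjusted p = 0.163). The libraries of Dlk1 overlapped between genotypes and spread widely within each. Without KO replicate 1 both Dlk1 and Notch4 were called higher, so that 2 rose and 2 fell. Of 10 endothelial markers 6 could be tested and 2 fell. Their summed level was 20.2 to 23.5 CPM in WT and 6.76 to 10.2 in KO, mostly Flt1. Of the others, Cldn5 had 0 counts in all libraries, and Cdh5, Tie1 and Erg had 0 to 3, 0 to 2 and 0 to 1 counts in a library. Pecam1, Tek, Kdr, Emcn and Vwf were counted in every library, 18 to 42, 9 to 25, 3 to 44, 6 to 36 and 6 to 41 times. Dll4 was no longer called when WT replicate 2 (adjusted p = 0.0688) or KO replicate 3 (0.0591) was left out. Of 7 epithelial markers 3 could be tested, with 2 higher and 1 lower. Their sum was 5.25 to 10.3 CPM in WT and 30.3 to 50.9 in KO, with Krt19 and Krt18 higher, and all 127 counts of Epcam lay in WT libraries. The part of either cell type in the ligand levels was not tested.

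In none of the 4 target genes did the groups separate. Hes1 (ENSMUSG00000022528, chromosome 16, 30064384 to 30067796, plus strand) encodes the repressor most widely used as a readout of Notch activity, though other pathways act on it too. It stood at 9.77, 8.30 and 5.17 CPM in WT and at 10.3, 10.6 and 7.70 CPM in KO. The groups overlapped, with WT replicate 3 lowest of all 6. For Hes1 the log2 fold change was 0.30 (SE 0.31, adjusted p = 0.442).

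Hey1 (ENSMUSG00000040289, chromosome 3, 8663359 to 8667256, minus strand) stood at 5.00, 2.70 and 3.68 CPM in WT and at 8.60, 5.63 and 3.86 CPM in KO. Its KO replicates 1 and 2 were above every WT library and KO replicate 3 was not. The log2 fold change of Hey1 was 0.66 (SE 0.41, adjusted p = 0.203), or 0.32 without KO replicate 1 (adjusted p = 0.405). Neither Hes1 nor Hey1 was called under any of the 14 alternatives.

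Hey2 (ENSMUSG00000019789, chromosome 10, 30832359 to 30842801, minus strand), the gene whose upstream sequence is shown above, was counted 12, 39 and 24 times in the WT libraries and 40, 26 and 26 times in the KO libraries. These overlapped, and the log2 fold change of 0.29 (SE 0.56, adjusted p = 0.698) turned to -0.06 without WT replicate 1 and to -0.12 without KO replicate 1. Heyl (ENSMUSG00000032744, chromosome 4, 123233556 to 123249875, plus strand), a HEY factor best known from vascular smooth muscle, had WT counts of 0, 6 and 5 and KO counts of 0, 2 and 0. The ratio of WT to KO for Heyl was 5.73, with a 95% interval of 1.25 to 53.2 that covers counting error only and not the spread between libraries. Where Heyl was not detected its level may still reach 3 counts, which is 0.0816 to 0.113 CPM depending on the library.

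Per kilobase, Hes1 was above Hey1 and Hey1 above Hey2 in each of the 6 libraries. In WT they were at 3.80 ± 1.16, 1.16 ± 0.353 and 0.175 ± 0.0924 CPM per kb and in KO at 4.68 ± 0.785, 1.85 ± 0.733 and 0.216 ± 0.0962. Hes1 made up 72.9% ± 6.61 of the sum of the 4 targets in WT and 70.1% ± 6.01 in KO (SD, n = 3, exact permutation p = 0.5). The sum itself was 5.16 ± 1.27 and 6.75 ± 1.49 CPM per kb (exact permutation p = 0.3).

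**Figure D3:**
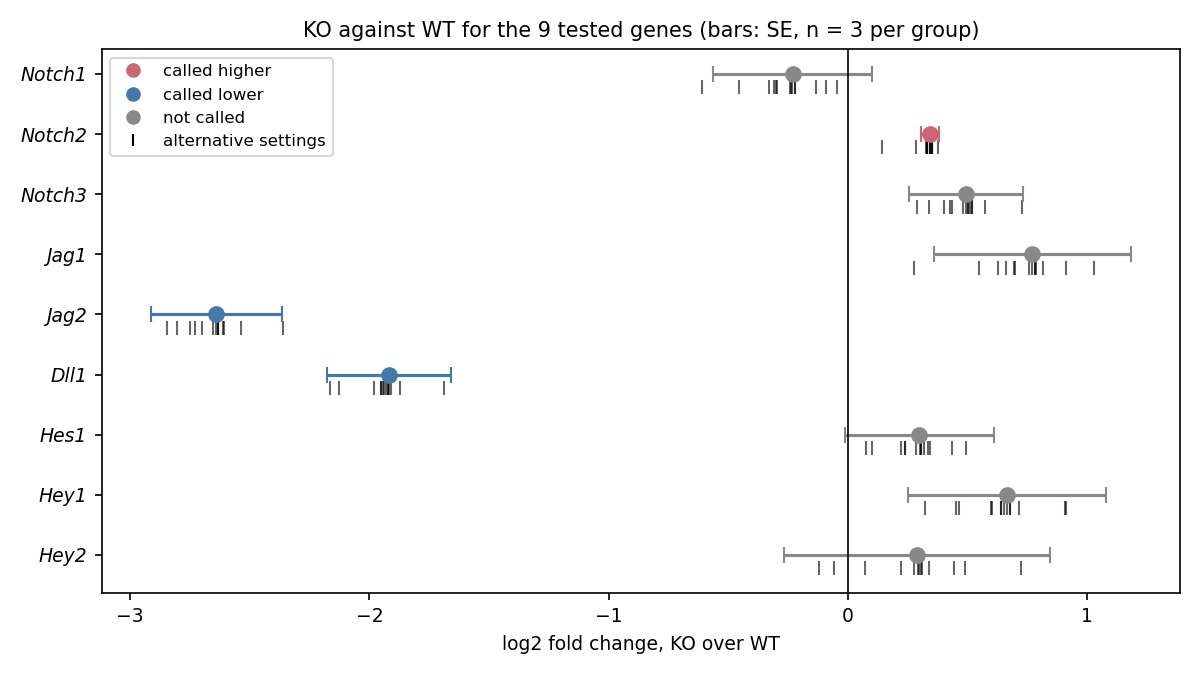
Log2 fold change of KO over WT (x axis) for the 9 tested genes (y axis), with bars for the SE (n = 3 per group) and short ticks for each alternative setting or left-out library. Jag2 at -2.64 and Dll1 at -1.92 stay below 0 in every setting, and only Hey2 has ticks on both sides of 0.

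The remaining genes of the pathway were read from lists for each step, which hold 67 genes, of which 61 could be tested. Of these 8 rose, 9 fell and 44 were not called, beside 13.8% and 14.5% of all tested genes. The median log2 fold change of the 61 was 0.01. Without KO replicate 1 the numbers were 13 higher and 13 lower, in a fit that called 19.9% of all tested genes higher and 22.4% lower.

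Receptor maturation and ligand activation each held 1 lower gene. Pofut1, the enzyme that adds O-fucose to the receptors' EGF repeats, fell by 0.71 (SE 0.20, adjusted p = 0.0189), from 77.0 ± 2.22 to 47.0 ± 10.4 CPM, and the other 5 glycosyltransferases were not called. KO replicate 1 was lowest, at 35.1 CPM against 52.7 and 53.3. Mib2, a ubiquitin ligase that acts on the ligands' intracellular tails, fell by 0.58 (SE 0.20, adjusted p = 0.0448), and 3 such ligases were not called. Pofut1 lost its call without any 1 WT library (adjusted p from 0.0592 to 0.0706), and Mib2 without any 1 library other than KO replicate 1 (0.0950 to 0.158).

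Among 10 genes of receptor cleavage 2 rose and 8 were not called. Furin, the convertase that makes the first cut in the receptor, rose by 0.76 (SE 0.22, adjusted p = 0.0180), from 56.2 ± 1.87 CPM in WT to 69.3, 105 and 111 CPM in KO, where replicate 1 was again the lowest. Aph1a, a subunit of gamma-secretase, rose by 0.50 (SE 0.06, adjusted p = 0.0103), from 100.2 ± 5.63 to 142 ± 6.77 CPM, and shares 445 exon bases with Car14 on the opposite strand, which had 5 to 52 counts in a library. With library totals neither passed (adjusted p = 0.0685 and 0.0731), and Furin also lost its call without any 1 library other than KO replicates 1 and 2 (0.0543 to 0.0722).

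In the nuclear complex, Rbpj itself was not called (log2 fold change 0.14, SE 0.21, adjusted p = 0.603), at 144 ± 7.82 CPM in WT and 158 ± 41.7 in KO. Of 14 genes in this list 2 rose and 12 were not called. Maml3, a Mastermind coactivator, rose by 2.13 (SE 0.46, adjusted p = 0.00519). It stood at 3.58, 2.99 and 3.82 CPM in WT and at 7.44, 19.4 and 18.7 CPM in KO, with KO replicate 1 the lowest of the KO libraries. Snw1, also called SKIP, a splicing factor that binds the Notch complex, rose by 1.21 (SE 0.13, adjusted p = 0.000824), from 53.0, 42.9 and 44.7 CPM in WT to 122, 100.2 and 103 CPM in KO. Its exons share 2914 bases with Slirp on the opposite strand, which had 276 to 602 counts in a library against 1323 to 3784 for Snw1.

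Of 11 tested genes of turnover and inhibition 2 rose, 3 fell and 6 were not called. Without KO replicate 1 the lower genes were 6, with Itch, Dtx3 and Egfl7 beside the 3. Nrarp, a feedback inhibitor that Notch itself switches on, fell by 2.63 (SE 0.21, adjusted p = 0.00152). Its WT counts of 39, 49 and 38 lay well above the KO counts of 4, 9 and 8, and it was called under all 14 alternatives. Gm38287, which shares 2051 exon bases with Nrarp on the opposite strand, had 0 counts in all libraries. Chac1, known for degrading glutathione and also for blocking the maturation of Notch1, fell by 1.47 (SE 0.18, adjusted p = 0.000916), from 83.6 ± 3.92 to 30.3 ± 6.77 CPM. Dtx3l, a Deltex-like ubiquitin ligase that works with PARP9, fell by 1.90 (SE 0.09, adjusted p = 0.000588). The exons of Dtx3l share 458 bases with Parp9 on the opposite strand, and Parp9 had 376 to 570 counts in a WT library and 98 to 210 in a KO library.

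On the higher side, Dtx4, another Deltex ligase, rose by 0.92 (SE 0.25, adjusted p = 0.0213), and Numb, an adaptor that inhibits Notch, rose by 0.51 (SE 0.11, adjusted p = 0.0301). Leaving out WT replicate 1 or 3 ended the call of Dtx4 (adjusted p = 0.0877 and 0.0829). Numb lost its call with library totals (0.114), with no filter on low counts (0.0575), without any 1 WT library (0.0873 to 0.104) and without KO replicate 3 (0.0547).

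Of the other bHLH repressors 5 of 8 had counts enough to test. Bhlhe40, a clock-linked repressor, rose by 1.66 (SE 0.61, adjusted p = 0.0348), or by 0.91 without KO replicate 1. It stood at 15.3, 13.4 and 12.9 CPM in WT and at 79.1, 18.7 and 33.5 CPM in KO. Its call was lost with limma-voom (adjusted p = 0.083) and without any 1 WT library (0.1 to 0.119). Hes6, which counteracts Hes1 in neural cells, fell by 0.48 (SE 0.15, adjusted p = 0.0474), a call lost with RLE scaling (0.0503), limma-voom (0.0502), no filter (0.0562) or without any 1 of WT replicates 1 and 2 and KO replicates 2 and 3 (0.0604 to 0.187). Hes2 was called lower (adjusted p = 0.00554) on few reads, with summed counts of 45 (WT) and 3 (KO), a ratio of 15.6 with a 95% interval of 5.01 to 78.6 for counting error only. Hes5, a classic target in neural progenitors, had 1 count in WT and 0 in KO.

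Among the partners and antagonists of bHLH factors 1 of 7 was called. Id4, an inhibitor that lacks the DNA-binding region, rose by 1.19 (SE 0.37, adjusted p = 0.0310), from 3.07 ± 0.461 to 6.98 ± 2.70 CPM, with KO replicate 1 at 4.21 CPM below the other two KO libraries. This call was lost with library totals (adjusted p = 0.0613) and without any 1 library other than KO replicate 1 (0.0712 to 0.111).

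**Figure D4:**
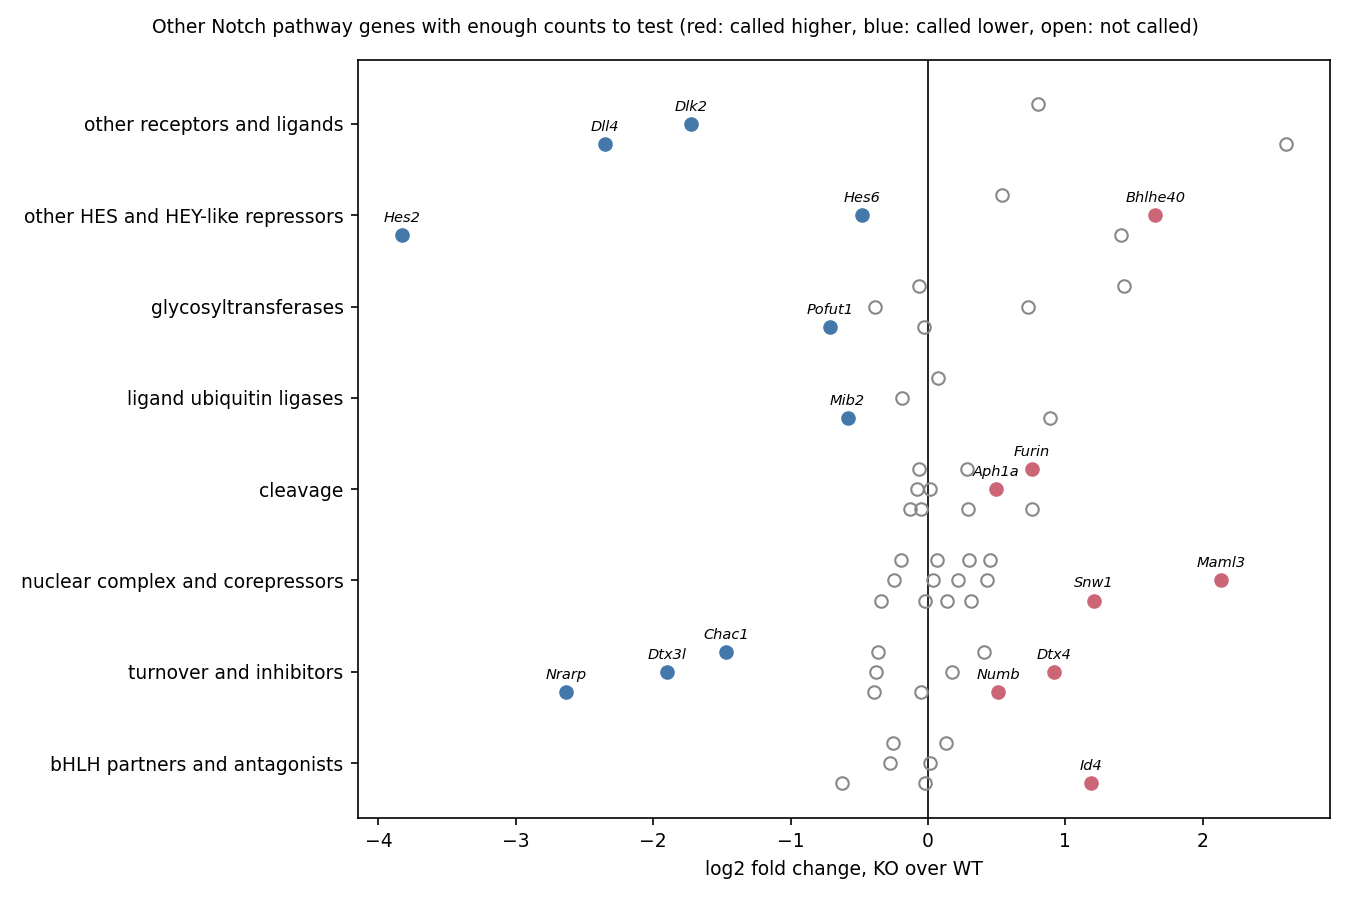
Log2 fold change of KO over WT (x axis) for the 61 tested genes outside the 10, by list (y axis), with called genes filled and named and the others open. The vertical offset within a list has no meaning. The lower calls with the greatest distance from 0 are Hes2, Nrarp and Dll4, and Maml3 at 2.13 is the most distant of the higher calls.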

How the data were processed

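The authors deposited raw read counts per Ensembl gene, 1 table for each library. As tools and build, TopHat2 2.1.0, HTSeq, DESeq2 and GRCm38.p4 are listed in the submitters' processing notes. An annotation release, a strand setting and read filters were not given in the sources used here. Per the labels' protocols the library kit was TruSeq RNA v2. Symbols, positions and exon lengths (all exons of a gene merged) came from GENCODE M21 (GRCm38), which matched 46005 of 46603 identifiers.

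Counts were filtered with filterByExpr by group, scaled with TMM and tested with edgeR 4.0.16 (R 4.3.3), quasi-likelihood F test, two-sided, group as the only term, with Benjamini-Hochberg adjustment over all 15009 tested genes. Every log2 fold change sets KO over WT, and its SE was taken from the log2 CPM values (prior count of 2) as the error of the group difference. Shares were compared by an exact permutation test over libraries, with 13 shares in the family. As alternatives, the scaling (RLE, upper-quartile, library totals), the tool (DESeq2 1.42.0, voom in limma 3.58.1), the filter, a replicate block and each library left out were tried. The fits were also run on simulated counts, in which no library stood apart and few genes changed, unlike these data. That run checked the code and does not bear on the calls given here.

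The genes and lists were chosen with earlier results of these data known. Outside the 10, called genes were named, at most 3 in each direction from each list. Dlk1, Rbpj, Notch4, Hes5, Itch, Dtx3, Egfl7 and the markers and overlapping genes given by name were named, and the mural sum without Cspg4 was taken, after their values had been seen. Sequences are from RefSeq.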

Additional observations from a re-analysis of the deposited data

How the results depend on the processing

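Jag2 and Dll1 were called lower in every alternative run. The number of the 10 genes called lower was 2 in each except without KO replicate 1, where it was 3 with Notch1, and the leave-one-out range was 2 to 3. The number called higher was 1, and 0 with upper-quartile scaling, library totals, no filter on low counts or the replicate block, with 0 to 2 when 1 library was left out. Without WT replicate 3 the higher gene was Notch3 and without KO replicate 3 it was Jag1, both in place of Notch2. Over all genes, 2074 higher and 2181 lower calls became 1351 and 3347 with library totals, which moved the median log2 fold change of all tested genes from 0.01 to -0.19. Leaving out 1 library gave 1003 to 3075 higher and 1295 to 3462 lower calls. Hey2 changed sign without WT replicate 1 (-0.06) and without KO replicate 1 (-0.12), with a leave-one-out range of -0.12 to 0.72. With raw counts in place of levels per exon length, the KO minus WT difference in share was -0.963 points for Heyl (-0.466 per length), -3.01 for Dll1 (-4.48) and -1.53 for Dll4 (-2.48). That of Notch2 turned from -0.806 to 0.345, and those of Hey2 (-0.506 to -0.990) and Dll3 (-0.356 to -0.162) also differed. For Notch2, Hey2 and Dll3 the change was less than the larger of the SDs in WT and KO. All these differences between scales arise as the merged exon length of each gene enters 1 scale and not the other. The cause of the other changes was not tested.

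The labels number the replicates but do not pair them, so the numbers were not taken as pairs. Across genes, libraries of equal number deviated from the group means with correlations of -0.101, 0.046 and -0.148, and those of unequal number with -0.044 to 0.168. With 3 libraries per group these values cannot show whether the cultures were paired. With the replicate block 3045 genes were called in place of 4255, of which 3015 were shared, and the log2 fold change of Notch2 was 0.34 with an adjusted p of 0.107. The block also ended the calls of Mib2 (0.0696), Hes6 (0.0846), Dtx4 (0.0608), Numb (0.0890) and Id4 (0.0816), and of no other gene named with a call. Heyl, with summed counts of 11 (WT) and 2 (KO), did not pass the filter on low counts.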
